A study of Mus musculus with 7 samples.

Results

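The interferon-stimulated genes and nucleic acid sensors described here are 48 genes, taken as the rows of the count table whose symbol is on a fixed list. All 48 were found among the 24419 genes of the table. Of these, 32 had 10 or more reads in at least 3 of the 7 libraries. Another 8 had some reads but stayed under that level, and 8 had no read in any library. The libraries were made from polyadenylated RNA of cultured LLC1 cells, which come from a Lewis lung carcinoma of the mouse and were kept in DMEM with fetal bovine serum. There were 4 wild-type libraries and 3 libraries of cells in which Ddx54, a nucleolar DEAD-box RNA helicase, was lowered with an shRNA. No control construct, shRNA sequence, number of clones or time after knockdown is stated for either group, and no interferon or other stimulus is named. Nor do the labels tell whether replicates were grown as separate cultures, so a p-value refers to the spread between these libraries, which may be technical.

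Interferons are secreted proteins made when a cell detects foreign or misplaced nucleic acid. Sensors such as MDA5 (Ifih1) and TLR3 signal through adaptors to the kinases TBK1 and IKKε, and STING (Tmem173) is the adaptor of DNA sensing. These kinases activate the factors IRF3 and IRF7 and so switch on interferon genes. Type I interferon binds IFNAR1 and IFNAR2, and an activated complex that holds STAT2 and IRF9 then binds an interferon-stimulated response element (ISRE) in target promoters. Type II interferon binds IFNGR1 and IFNGR2 and acts on target promoters at a gamma-activated site (GAS). The targets include antiviral effectors that block entry, degrade RNA or modify proteins.

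The promoters of 7 members are shown because they hold the letters that these factors are known to read, in genes that were silent, abundant or lower in knockdown. RefSeq windows of 250 bases before to 50 bases after the gene start (GRCm38.p6) were matched by symbol for 40 of the 48 members. Positions are relative to the RefSeq start, which can differ from the GENCODE start. Among the 25174 windows compared, 68.4% held the first 30 bases of a GENCODE transcript near the start. Each window was searched on both strands for an ISRE core (GAAA, any 2 bases, then GAAA) and for a GAS core (TTCNNNGAA), which reads alike on both strands. The 2 motifs can share bases. Capitals mark the matched letters. The first 3 stretches, each the 120 bases before the start, come from effector genes with few or no reads: Isg15 (chr4:156200819-156200938, minus strand), Ifit1 (chr19:34640769-34640888, plus strand) and Oas1a (chr5:120907526-120907645, minus strand). The Oas1a stretch holds a GAS match first and then 2 overlapping ISRE matches.
Isg15: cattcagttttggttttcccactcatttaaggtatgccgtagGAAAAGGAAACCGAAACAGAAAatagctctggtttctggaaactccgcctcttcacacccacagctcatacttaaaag
Ifit1: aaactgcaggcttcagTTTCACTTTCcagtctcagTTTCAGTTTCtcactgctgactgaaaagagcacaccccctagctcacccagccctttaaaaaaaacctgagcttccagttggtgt
Oas1a: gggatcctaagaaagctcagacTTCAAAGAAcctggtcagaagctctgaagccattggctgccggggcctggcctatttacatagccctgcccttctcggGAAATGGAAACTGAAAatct

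The next stretches come from members that were lower in knockdown. Ifitm2 (chr7:140955962-140956081, minus strand) has 1 ISRE match before its start. Ifitm3 (chr7:141010716-141010742, minus strand) has its matches just after the RefSeq start, at bases 3 to 29, where a GAS match overlaps the second ISRE match. GENCODE places the Ifitm3 start farther upstream, at base 141010770. Irf8 (chr8:120736177-120736236, plus strand) has 2 GAS matches and Isg20 (chr7:78913304-78913423, plus strand) has 1.
Ifitm2: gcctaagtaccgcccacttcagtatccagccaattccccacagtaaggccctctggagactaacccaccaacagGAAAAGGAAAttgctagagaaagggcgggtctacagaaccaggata
Ifitm3: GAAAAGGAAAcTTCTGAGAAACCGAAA
Irf8: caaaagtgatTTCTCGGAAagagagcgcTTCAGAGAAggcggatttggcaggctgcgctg
Isg20: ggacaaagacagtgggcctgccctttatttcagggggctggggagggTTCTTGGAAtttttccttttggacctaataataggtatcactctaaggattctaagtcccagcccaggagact

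An ISRE match was found in 16 of the 40 members with a window (40%), against 3.99% of all 27025 genes with one. A GAS match was found in 14 members (35%), against 9.55% of all genes. Members without enough reads were the richest in ISRE letters, with 7 of 12, while 3 of the 9 lower members, 5 of the 16 that did not pass and 0 of the 2 higher members had a match. GAS letters were in 5 of the 9 lower members, in 8 of the 16 that did not pass, in 0 of the 2 higher members and in 1 of the 12 without enough reads. Isg15 is in none of these groups, since it met the level of 10 reads in 3 libraries but was not tested. Its window held ISRE letters and no GAS letters. For both motifs the lower members and those that did not pass thus had similar shares. The windows of Ifitm1, Irf9 and Tbk1 held neither motif. A match describes letters, not binding.

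Library totals ranged from 14987324 to 18673395 reads. Ddx54, which checks the labels, stood at 78.6 to 83.2 CPM (read counts relative to library size, with TMM factors) in wild-type and at 39.2 to 45.9 CPM in knockdown, 53.8% of wild-type (log2 fold change -0.90, SE 0.096, edgeR adjusted p = 6.55e-09; exact two-sided permutation p = 0.0286, the smallest that 35 splits can give). Of 20 leukocyte markers 6 had no read and 3 had 10 or more reads in 3 libraries, and their summed level was 20.5 to 26.7 CPM in wild-type and 28.1 to 31.4 CPM in knockdown, most of it Cd14. Cd14 rose (log2 fold change 0.40, edgeR adjusted p = 0.0478), and whether it bears on the genes below was not tested. The defining leukocyte marker Ptprc had 2 reads in all 7 libraries together and the endothelial marker Pecam1 had 14. The endothelial list of 8 had 4 genes without a read. Eng on that list stood at means of 29.1 (wild-type) and 29.8 CPM (knockdown) and did not pass (edgeR adjusted p = 0.873). Of the epithelial markers, Epcam and Cdh1 had 3 reads each, whereas Vim stood at 5714 CPM or more in every library. Of the epithelial keratins, Krt7 had 49 reads in all libraries together. Krt8, with means of 20.3 (wild-type) and 23.6 CPM (knockdown), did not pass (edgeR adjusted p = 0.373). Krt18 fell from 217 to 132 CPM (log2 fold change -0.72, edgeR adjusted p = 4.62e-10) and Krt19 from 4.39 to 1.08 CPM (-2.03, edgeR adjusted p = 0.000811), and their part in the results below was not tested. The fibroblast list was led by Col3a1, and its sum was 1048 to 1239 CPM in wild-type and 1060 to 1128 CPM in knockdown.

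Reads on the members were few and unevenly spread. They made up 0.142 to 0.153% of all reads in wild-type and 0.108 to 0.112% in knockdown, and the groups did not overlap. Ifitm3 alone took 49.4 to 52.4% of the member reads in wild-type and 41.3 to 45.1% in knockdown. Per kilobase of exon, the highest wild-type levels were those of Ifitm3 (1126 CPM per kb), Ifitm2 (139 CPM per kb), Tmem173 (34.5 CPM per kb), Ifitm1 (24.4 CPM per kb) and Ifnar2 (19.6 CPM per kb). Most classical effectors were at the bottom of the same order, as the plot of read counts by member shows.

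**Figure D1:**
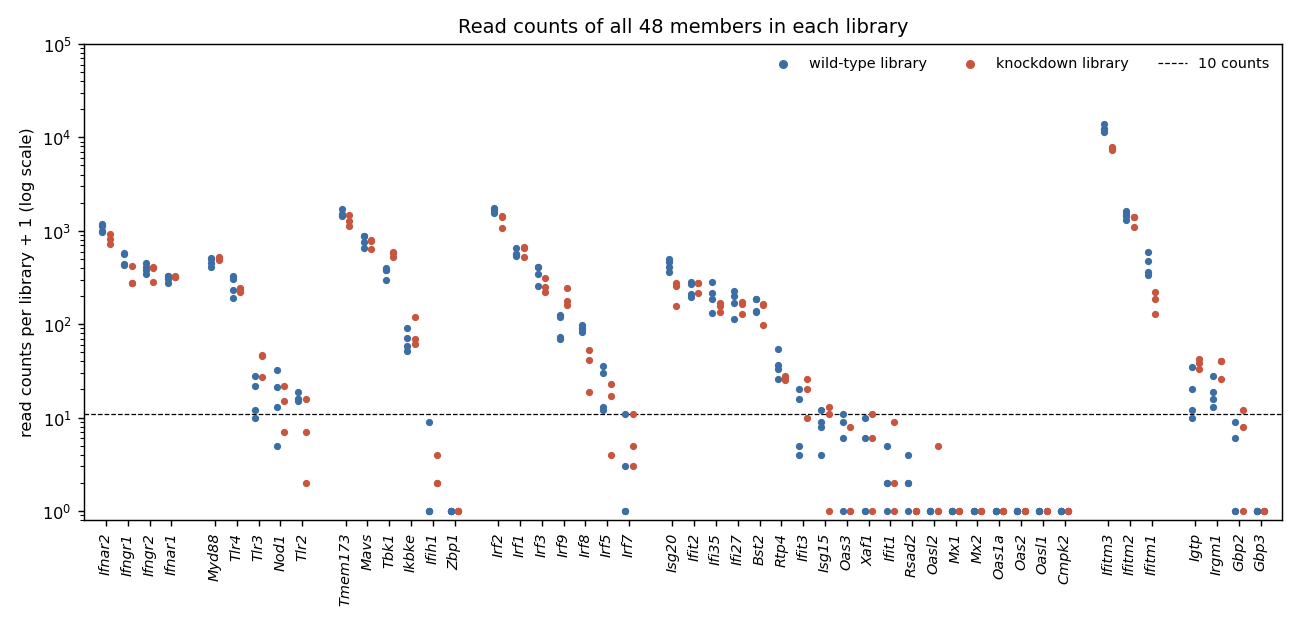
Read counts plus 1 (log axis) of all 48 members in each of the 4 wild-type and 3 knockdown libraries, grouped by role. Ifitm3 has at least 7292 reads in every library, while 8 members sit at 0 reads in all 7.

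The members at 0 in all 7 libraries were Mx1, Mx2, Oas1a, Oas2, Oasl1, Cmpk2, Gbp3 and the Z-form nucleic acid sensor Zbp1. A count of 0 allows up to 3 reads, which is 0.163 to 0.204 CPM in a library of this depth and 0.0259 CPM over all 7 together. Mx1 and Mx2 are dynamin-like GTPases that trap viral particles, and Mx2 is annotated as a polymorphic pseudogene. Oas1a and Oas2 make the second messenger that activates RNase L. The 8 members with a few reads were Gbp2 with 31 reads in all libraries together, Oas3 with 30, Xaf1 with 29, Irf7 with 28, Ifit1 with 15, Ifih1 with 13, Rsad2 with 5 and Oasl2 with 4. Isg15, a ubiquitin-like modifier and strongly induced by interferon in many cells, had 8, 11, 7 and 3 reads in wild-type and 0, 10 and 12 in knockdown. It met the level of 10 reads in 3 libraries but not the edgeR filter, which left 31 members to test. Of 21 interferon ligand genes, among them Ifnb1, Ifng and the Ifna genes, 19 had no read. The other 2 were Ifnz, with 7 reads in knockdown 2, and Ifnk, with 1 read in knockdown 3. At this depth no difference was detectable in these genes.

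Among the 31 tested members, 10 fell and 2 rose in knockdown (edgeR, adjusted p under 0.05 over all genes), and 19 did not pass. Over all 11594 tested genes 15.3% fell and 14.1% rose, 29.4% in all, against 32.3% and 6.45% of the tested members. The median log2 fold change was -0.24 for the tested members and 0.001 for all tested genes. The CPM ranges of both groups were apart for 10 members lower and 5 members higher in knockdown, 48.4% of those tested, where the share over all genes was 17.6% and 17.5%, 35.1% in all. All 12 calls were among the 23 tested members with a wild-type mean of at least 3 CPM. Deeper genes were also called more often over the whole table. With a filter of at least 50 reads in 3 libraries, 23 members were tested, and 10 fell and 2 rose. Of the 9972 genes kept by that filter, 1789 fell and 1646 rose. The share of members called is read here only as a description, since the list was chosen with results of these data known.

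**Figure D2:**
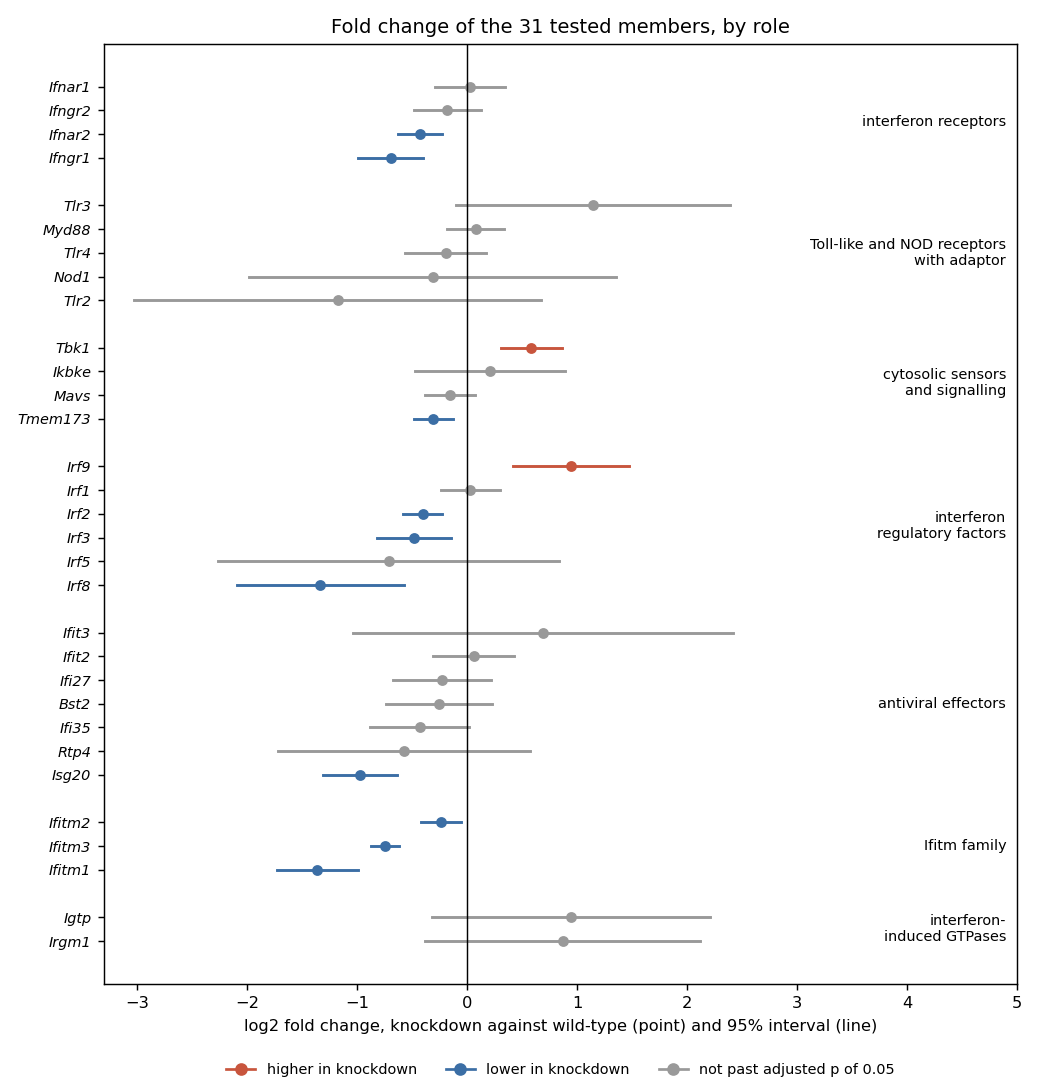
Log2 fold change of the 31 tested members with its 95% interval, grouped by role, coloured by call. The 3 Ifitm genes lie left of 0, Tbk1 and Irf9 lie right of 0, and intervals are widest for members near 1 CPM such as Tlr2.

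Of the 4 interferon receptor subunits, the type I subunit Ifnar2 and the ligand-binding type II subunit Ifngr1 fell. Ifnar2 was at 61.5, 65.3, 64.3 and 70.0 CPM in wild-type and at 48.6, 49.6 and 47.1 CPM in knockdown. The knockdown level was 74.2% of wild-type (log2 fold change -0.43, SE 0.099, edgeR adjusted p = 0.000943). Ifngr1 was at 30.8, 29.3, 29.0 and 34.4 CPM in wild-type and at 16.5, 22.7 and 17.95 CPM in knockdown. Every knockdown library lay below every wild-type library for both genes, and Ifngr1 had the larger change (log2 fold change -0.69, SE 0.15, edgeR adjusted p = 0.000383). The partner subunits did not pass. Ifnar1 was at 18.9 ± 1.15 CPM in wild-type (SD, n = 4) and 19.2 ± 1.68 CPM in knockdown (SD, n = 3), with a 95% interval for the log2 fold change of -0.29 to 0.34. Ifngr2 was at 24.3 ± 2.52 and 21.4 ± 2.65 CPM, with an interval of -0.49 to 0.12. Ifnar2, Ifnar1 and Ifngr2 lie near each other on chromosome 16 (GRCm38, 91372783 to 91565623), and of these only Ifnar2 passed. The difference between their changes was not tested.

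None of the 5 Toll-like and NOD receptor members passed. Myd88, the adaptor used by most Toll-like receptors, was at 28.1, 27.6, 29.3 and 29.6 CPM in wild-type and at 30.7, 28.5 and 31.6 CPM in knockdown. Tlr4, the receptor for bacterial lipopolysaccharide, was at 17.8, 12.9, 15.2 and 18.1 CPM in wild-type and at 13.0, 13.0 and 15.9 CPM in knockdown. The groups overlapped for both, with 95% intervals of -0.18 to 0.34 and -0.56 to 0.17 log2 units. Myd88 overlaps the opposite-strand gene Acaa1a over 1736 bases, where reads could be exchanged if strand was ignored. Acaa1a had 318 to 551 reads per library. The same-strand gene Slc22a14, which shares 5478 bases with Myd88, had 0 reads in every library. Tlr3, which binds double-stranded RNA in endosomes, had 27, 11, 21 and 9 reads in wild-type and 46, 45 and 26 in knockdown. Its scaled levels did not overlap (log2 fold change 1.15, SE 0.61), but it did not pass (edgeR adjusted p = 0.169). Tlr2, which binds bacterial lipoproteins, had 14 to 18 reads in wild-type and 6, 15 and 1 in knockdown (log2 fold change -1.18, SE 0.91, edgeR adjusted p = 0.365). Nod1, a sensor of bacterial peptidoglycan, had 4 to 31 reads in any library.

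In the cytosolic sensing pathway the adaptor and the kinase moved in opposite directions. Tmem173, which encodes the STING adaptor of DNA sensing, was at 83.2, 101, 93.7 and 101 CPM in wild-type and at 76.1, 79.3 and 74.0 CPM in knockdown. The groups did not overlap, and the fall to 80.8% of wild-type passed the test (log2 fold change -0.31, SE 0.087, edgeR adjusted p = 0.007). Tbk1, the kinase that phosphorylates IRF3, was at 20.7, 20.3, 26.1 and 22.4 CPM in wild-type and at 34.4, 31.8 and 34.4 CPM in knockdown. All 3 knockdown libraries lay above all wild-type libraries, at 149.9% of the wild-type mean (log2 fold change 0.58, SE 0.14, edgeR adjusted p = 0.00114). Mavs, the mitochondrial adaptor of RNA sensing, did not pass, at 47.7, 51.7, 42.7 and 52.3 CPM in wild-type and 47.7, 41.8 and 41.7 CPM in knockdown (95% interval -0.38 to 0.08 log2 units). Ikbke, which encodes the TBK1-related kinase IKKε, was lowly expressed, at 3.16 to 6.04 CPM in wild-type and 3.58 to 6.35 CPM in knockdown.

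Of the 7 interferon regulatory factors, 6 could be tested, and 3 fell while 1 rose. Irf2, best known as a repressor that competes with IRF1, was the most abundant, at 93.6, 105, 107 and 104 CPM in wild-type and 84.1, 78.5 and 69.6 CPM in knockdown (log2 fold change -0.40, SE 0.086, edgeR adjusted p = 0.000449). Its groups did not overlap. Irf8, a factor best known from myeloid and B cells, was at 4.74, 6.11, 6.27 and 4.796 CPM in wild-type and at 1.07, 2.82 and 2.60 CPM in knockdown. That was 39.5% of wild-type (log2 fold change -1.33, SE 0.37, edgeR adjusted p = 0.00596), and knockdown 1 was the lowest library. Without knockdown 1 the Irf8 value was -1.01 and the call was just lost (edgeR adjusted p = 0.0503). Among the leukocyte markers, Ptprc was near 0 in both groups, as given above. Cd14, Cd68 and Itgax had 10 or more reads in every library. Their means were 18.1, 3.63 and 1.85 CPM in wild-type and 24.0, 3.74 and 1.41 CPM in knockdown. The source of the Irf8 reads was not tested. Annotated same-strand genes that were not analysed here overlap Irf8 (Gm20388, 20337 bases), Ifnar2 (Gm21970, 13869 bases) and Ifitm2 (Gm45717, 1101 bases), so the values of these 3 members are uncertain where reads were shared.

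Irf3, the factor that TBK1 activates, was at 22.4, 23.2, 16.7 and 23.9 CPM in wild-type and at 14.8, 17.1 and 14.3 CPM in knockdown. The ranges overlapped, because wild-type 3 lay below knockdown 2 (log2 fold change -0.48, SE 0.17, edgeR adjusted p = 0.0265). The Irf3 call was lost without wild-type 2 (adjusted p = 0.0535) or 4 (0.0794), without knockdown 1 (0.0907) or 3 (0.11), and with a correction for GC content and length (0.0769). Irf3 overlaps the opposite-strand gene Bcl2l12 over 1065 bases, where reads could be exchanged if strand was ignored, and Bcl2l12 itself had 18 to 79 reads per library.

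Irf9, the DNA-binding partner of STAT2, rose. It was at 3.71, 8.42, 4.71 and 6.99 CPM in wild-type and at 14.4, 9.55 and 10.3 CPM in knockdown. The groups were apart by a narrow margin, between wild-type 2 and knockdown 2, and the log2 fold change was 0.94 (SE 0.26, edgeR adjusted p = 0.00539). Without knockdown 1, the highest library, it was 0.74 and did not pass (edgeR adjusted p = 0.0822), which left Tbk1 as the only member called higher in that setting. Irf9 shares 123 bases with Rnf31 on the same strand, and Rnf31 did not pass (log2 fold change -0.13, edgeR adjusted p = 0.793). Irf1, an early target of interferon gamma, was at 30.9, 44.1, 36.5 and 31.8 CPM in wild-type and at 40.0, 35.4 and 34.2 CPM in knockdown, with overlapping groups and an interval of -0.23 to 0.30 log2 units. Irf5, at 3 to 35 reads per library, did not pass. It overlaps the opposite-strand gene Tnpo3, which had 6534 to 9012 reads per library, over 1045 bases. If strand was ignored, reads could be exchanged there.

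**Figure D3:**
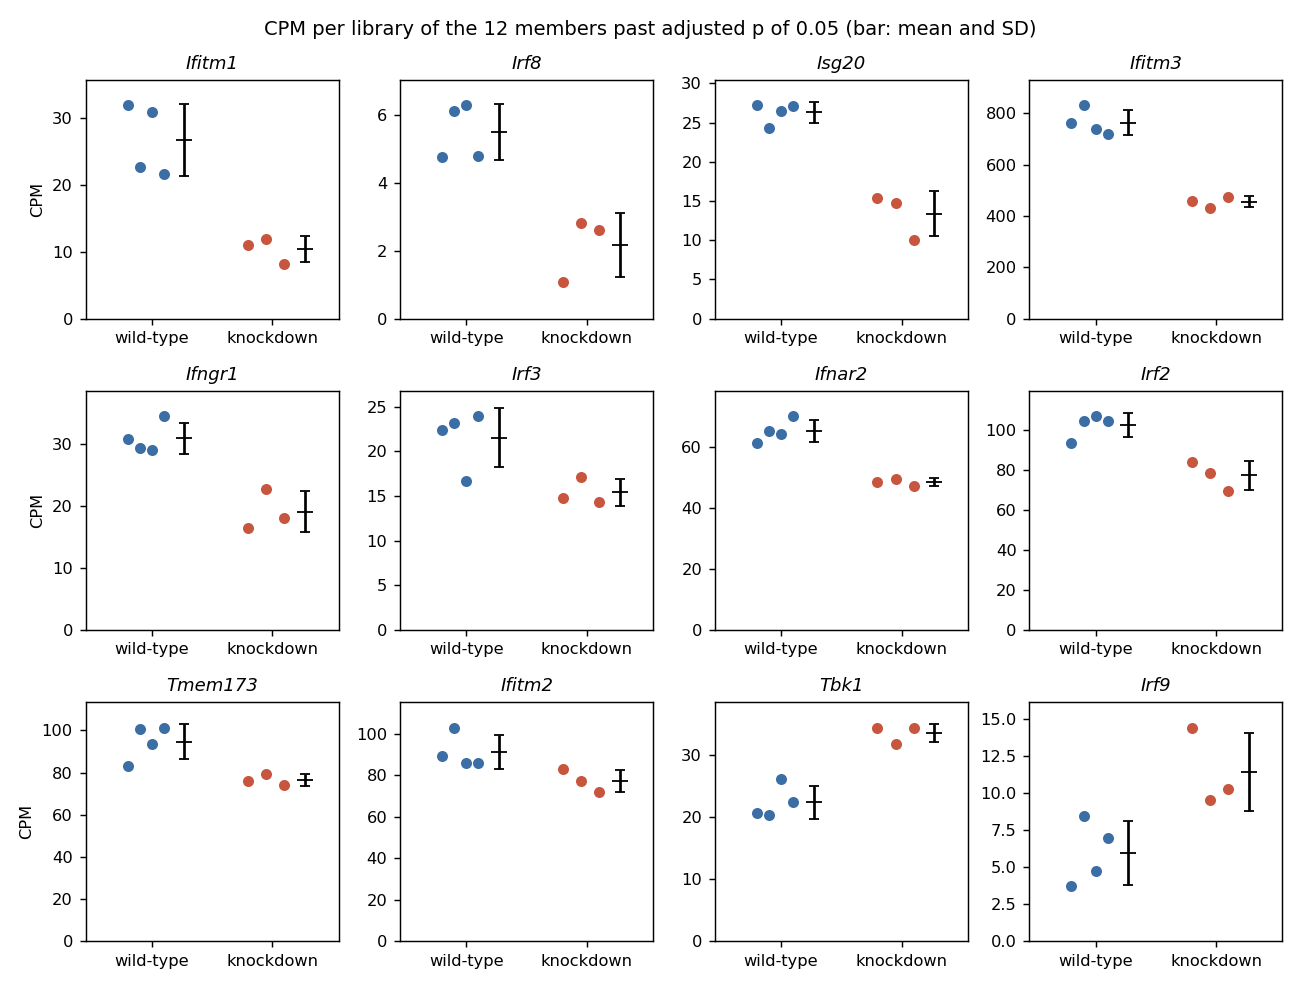
CPM in each library (points) with the group mean and SD (bar) for the 12 members that passed, ordered from the largest fall to the largest rise. For all but Irf3 the wild-type and knockdown points occupy separate ranges.

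All 3 Ifitm members fell. These genes encode small membrane proteins that block the fusion of viruses with cell membranes, and they lie together on chromosome 7 (GRCm38, Ifitm2 at 140954837 to 140955987, Ifitm1 at 140967221 to 140969825 and Ifitm3 at 141009586 to 141010770). Ifitm3 was at 763, 831, 739 and 721 CPM in wild-type and at 458, 431 and 474 CPM in knockdown. The lowest wild-type library was far above the highest knockdown library, and the knockdown mean was 59.6% of wild-type (log2 fold change -0.75, SE 0.063, edgeR adjusted p = 3.95e-11). Ifitm1 was at 31.9, 22.6, 30.9 and 21.6 CPM in wild-type and at 11.04, 11.9 and 8.20 CPM in knockdown. It fell to 38.9% of wild-type (log2 fold change -1.36, SE 0.18, edgeR adjusted p = 4.17e-07), though its wild-type libraries split into a higher and a lower pair.

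Ifitm2 changed least of the family, from 89.4, 103, 85.9 and 86.1 CPM to 82.8, 77.0 and 71.9 CPM (log2 fold change -0.24, SE 0.089, edgeR adjusted p = 0.0418). Its ranges were only just apart, and the call was lost without wild-type 2 (adjusted p = 0.142), without knockdown 2 (0.111) or 3 (0.2), and with DESeq2 (0.0528). The 3 genes are close paralogs, and how reads matching several of them were counted is not given in the sources used here, so their separate values are uncertain.

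Of the 19 other antiviral effectors, 7 could be tested, and 1 fell. Isg20, an exonuclease that degrades single-stranded RNA, was at 27.2, 24.3, 26.5 and 27.2 CPM in wild-type and at 15.3, 14.8 and 10.1 CPM in knockdown. The wild-type libraries lay close together (coefficient of variation 5.17%), and the knockdown mean was 50.9% of theirs (log2 fold change -0.97, SE 0.16, edgeR adjusted p = 2.17e-05). Ifit2, which binds viral RNA and slows translation, did not pass, at 15.4, 13.2, 17.4 and 12.3 CPM in wild-type and 16.4, 15.03 and 14.1 CPM in knockdown (interval -0.31 to 0.43 log2 units). The groups overlapped fully. Its relative Ifit3 had 3 to 25 reads per library. Bst2, the tether that holds budding virions on the cell surface, was at 9.90 ± 2.28 CPM in wild-type (SD, n = 4) and 8.26 ± 1.82 CPM in knockdown (SD, n = 3). Ifi35 was at 12.3 ± 2.87 and 9.12 ± 1.56 CPM, Ifi27 at 10.6 ± 2.10 and 9.10 ± 0.96 CPM, and Rtp4 at 2.28 ± 0.89 and 1.53 ± 0.14 CPM. None of these 4 passed, with edgeR adjusted p from 0.146 for Ifi35 to 0.492 for Rtp4. Rtp4 shares 39791 bases with the annotated same-strand gene Gm45338, which was not analysed here, so its value is uncertain where reads were shared.

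The interferon-induced GTPases act in the defence against intracellular microbes. Igtp (Irgm3) had 9, 19, 11 and 34 reads in wild-type and 37, 41 and 32 in knockdown, or 0.49, 1.29, 0.72 and 2.01 CPM against 2.21, 2.23 and 2.08 CPM. Irgm1 had 15, 18, 12 and 27 reads in wild-type and 39, 39 and 25 in knockdown, or 0.82, 1.22, 0.78 and 1.599 CPM against 2.33, 2.12 and 1.63 CPM. For both genes wild-type 4 came closest to the knockdown libraries without reaching them. Neither passed (log2 fold change 0.94 and 0.87, SE 0.62 and 0.61, edgeR adjusted p = 0.28 and 0.318), and their intervals reached from -0.38 to 2.21 log2 units together. Igtp shares 7974 bases with Irgm2 on the same strand, and Irgm2 had 5 to 43 reads per library.

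The precision of the members that did not pass differed with their depth. For the 8 such members with a wild-type mean under 3 CPM, the 95% interval reached 1.14 to 1.85 log2 units to either side of the estimate, so changes of that size could have been missed. For the 11 others, all intervals lay between -0.88 and 0.89 log2 units.

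Other genes of the pathway, from a separate list of 87, were examined in the same fit. Of 56 that could be tested 7 rose, 4 fell and 45 did not pass. That is 19.6% called, with a median log2 fold change of 0.07. Of all tested genes 29.4% were called, 14.1% higher and 15.3% lower. The JAK-STAT components of interferon signalling were led by Jak1, at 485 ± 4.73 CPM in wild-type (SD, n = 4) and 386 ± 11.6 CPM in knockdown (SD, n = 3), which fell (log2 fold change -0.33, SE 0.059, edgeR adjusted p = 4.74e-05). Stat2 (5.06 ± 1.13 and 5.17 ± 0.22 CPM) and the kinase Tyk2 (19.4 ± 1.51 and 21.7 ± 6.03 CPM) did not pass, with edgeR adjusted p = 0.956 and 0.528.

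The 6 largest changes among genes that passed with a mean of at least 5 CPM were as follows. Unc93b1, the chaperone that carries endosomal Toll-like receptors, fell from 14.6 ± 2.60 to 5.94 ± 0.96 CPM (log2 fold change -1.30). Irf2bp2, a partner of IRF2, fell from 171 ± 16.05 to 114 ± 6.64 CPM (-0.58). Slfn9, a Schlafen family gene, rose from 18.2 ± 2.23 to 37.5 ± 6.26 CPM (1.04), and the RNA helicase Dhx9 rose from 141.0 ± 11.5 to 231 ± 10.1 CPM (0.71). The adaptor Traf3 rose from 19.1 ± 4.62 to 29.0 ± 2.14 CPM (0.60), and Eif2ak2, which encodes the double-stranded RNA kinase PKR, rose from 22.3 ± 3.24 to 32.3 ± 3.46 CPM (0.53).

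The Oas genes lie beside the targeted gene. Ddx54 is on chromosome 5 (GRCm38, 120612739 to 120628592, plus strand). The near end of Oas2, a minus-strand gene, lies 101740 bases beyond Ddx54, followed by Oas3 and the Oas1 genes. Of the 10 Oas genes of that stretch in the table, 7 had no read in any library, Oas1a and Oas2 among them. Oas3 had 8, 0, 10 and 5 reads in wild-type and 7, 0 and 0 in knockdown. Oas1c, 171601 bases from Ddx54, is not a member and was singled out after its values were seen. It had 1, 0, 6 and 13 reads in wild-type and 39, 26 and 27 in knockdown (log2 fold change 2.55, SE 0.87, edgeR adjusted p = 0.0246), and Oas1b beside it had 31 reads in all. The Oas1 genes are paralogs, their sequences were not compared here, and reads that match several of them could be assigned to the wrong one.

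**Figure D4:**
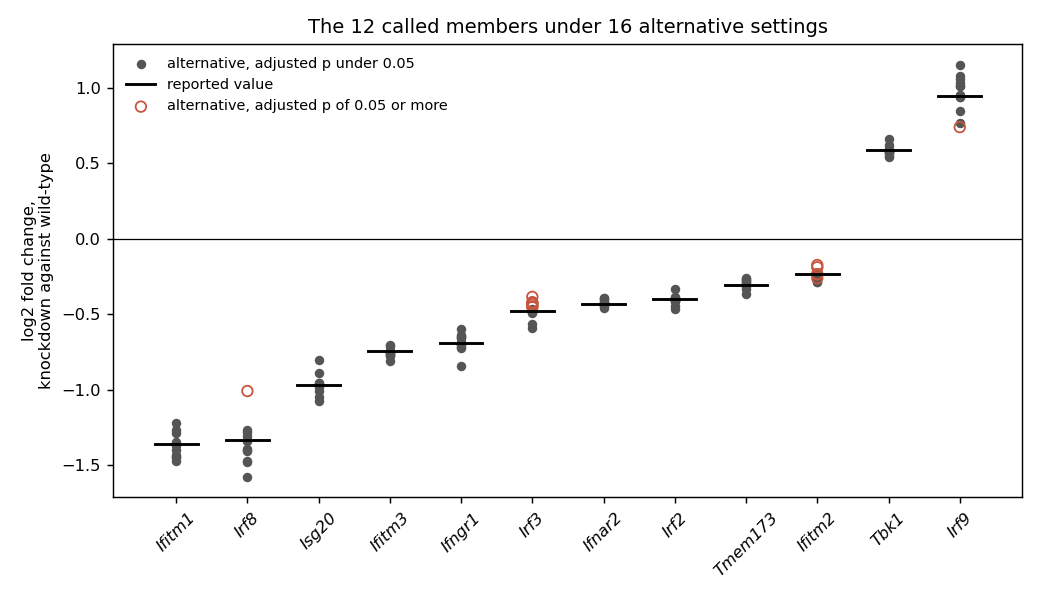
Log2 fold change of the 12 called members as reported (line) and under 16 alternative settings (points), with open circles where the adjusted p was 0.05 or more. No point crosses 0, and open circles occur for Irf8, Irf3, Ifitm2 and Irf9.

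The plot of alternative settings sets the 12 calls side by side. Under all 16 settings 8 members kept their call, namely Ifitm1, Ifitm3, Isg20, Ifngr1, Ifnar2, Irf2, Tmem173 and Tbk1. Ifitm1 ranged from -1.47 to -1.22 log2 units, Ifitm3 from -0.81 to -0.71, Isg20 from -1.08 to -0.81 and Ifngr1 from -0.84 to -0.60. Tbk1 ranged from 0.54 to 0.66 log2 units. None of the 19 members that did not pass did so under any setting in which it could be tested.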

How the data were processed

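Read counts per gene symbol were used as the authors deposited them, in a table of 24419 genes and 7 libraries with 0 further sample columns. Trimmomatic, STAR, HTSeq and mm10 are named, per the submitters' processing notes, without versions. No annotation, strand setting or rule for reads with several matches is stated there. Members and lists were chosen with earlier results of these data known. Genes were kept by filterByExpr (11594), scaled by TMM and tested with edgeR 4.0.16 (robust quasi-likelihood, no covariate, R 4.3.3), with Benjamini-Hochberg adjustment over all tested genes. SE is the absolute log2 fold change over the square root of F, and the 95% intervals rest on it. They cover the spread between libraries, and limits from a count of 0 cover counting error only. Positions and exon lengths come from GENCODE M21 (GRCm38), and promoters from RefSeq. Members past the threshold, and the 2 most abundant of each role, were given for every library. Of the other pathway genes, the 6 largest changes among those past the threshold with a mean of at least 5 CPM were named, with Stat2, Jak1 and Tyk2, and 1 further gene of this rule is not reported here. Simulated counts on 11410 genes recovered 50% of changes of 0.5 log2 units, 77.3% of 1 and 92.5% of 2. There were 15 false calls among 160, a share above the adjusted p threshold of 0.05. The simulation changed 200 genes, whereas 3405 were called in the data, so recovery in the data may differ. No pair of libraries in a group agreed within sampling noise (chi-square per degree of freedom 8.45 to 16.5). The alternatives were RLE and upper-quartile factors, 3 other low-count filters, a block on replicate number, a GC and length correction, limma-voom (limma 3.58.1), DESeq2 1.42.0, and leaving out each library.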

Additional observations from a re-analysis of the deposited data

How the results depend on the processing

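Members lower in knockdown numbered 8 to 10 over the 16 settings and members higher 1 to 2, the 1 without knockdown replicate 1. Other pathway genes numbered 5 to 9 higher and 4 to 6 lower. The Ddx54 log2 fold change lay between -0.93 and -0.81. With the replicate number as a block, the members lower numbered 8, since Irf3 (-0.42, edgeR adjusted p = 0.0888) and Ifitm2 (-0.26, 0.055) lost their calls, and the members higher numbered 2. Same-numbered libraries did not deviate together (correlations -0.034, -0.027 and -0.006), so the numbers are not taken to pair them. Changes of sign occurred only in genes that did not pass. With the replicate block they were Irf1 (-0.012) and Ifit2 (-0.0050). When 1 library was left out, the log2 fold change ranged from -0.039 to 0.14 for Irf1, from -0.012 to 0.15 for Ifit2, from -0.034 to 0.090 for Ifnar1, from -0.84 to 0.27 for Nod1, from -0.047 to 0.44 for Ikbke and from -0.0996 to 0.12 for Stat2. The cause was not tested. Separately, depth limits the members near 1 CPM, whose intervals span more than 1 log2 unit to either side. Of the genes that changed sign, Nod1 was near 1 CPM, while Irf1, Ifit2, Ifnar1, Ikbke and Stat2 were higher.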
